A study of Mus musculus with 12 samples.

Results

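Cytokine genes were followed here in CD4+ T cells that had, or had not, switched on Eomes, which encodes a transcription factor of the T-box family. The 10 genes were chosen by symbol from the 43626 genes of the count matrix: Ifng, Il21, Il2, Csf2, Tnf, Lta and Ltb, whose products drive or sustain inflammation, Il10 and Tgfb1, whose products restrain it, and Il4, the marker cytokine of type 2 helper cells. Naive CD4+ T cells with high CD45RB and no CD25 were taken from donor mice in which Eomes has 1 loxP-flanked (flox) and 1 green fluorescent protein (GFP) allele. They were given to adult male Rag2-/- mice, hosts that lack T and B cells and keep myeloid and other innate cells. At 3 weeks the CD4+ T cells of each spleen were split by sorting on GFP, so GFP reports the activity of the Eomes locus and every group carries the GFP allele. Donors without cre, which keep a working flox allele, are called Het, and donors with Lck-cre, which is active in T cells from the thymus on, are called KO. With GFP-negative and GFP-positive cells of each genotype there were 4 groups of 3 libraries. The GFP-positive and GFP-negative cells with the same number within a genotype came from 1 recipient, which gave 3 Het and 3 KO recipients. No restimulation of the sorted cells is named in the labels, so the values are read as those of unstimulated cells after sorting. Changes during the handling of the cells were not tested.

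Cytokines are the secreted or membrane-bound signals by which helper T cells act on other cells. T-box factors, NFAT, AP-1 and NF-κB proteins bind the promoters and enhancers of their genes. Most of the transcripts are made in bursts after the T cell receptor is engaged and decay quickly, so unstimulated cells hold few of them. Ifng is the signature cytokine gene of type 1 helper cells and a known target of T-box factors. In the transfer model used here, naive CD4+ T cells expand in a host without lymphocytes.

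Depth and purity differed between the sorts. Total counts per library ran from 11492908 to 18167236 in the GFP-negative and from 2116894 to 8608902 in the GFP-positive libraries, which were made from 18000 to 117000 cells. The 9 CD4 T cell marker genes summed to 2603 to 3189 CPM (counts scaled to library size by the TMM method) in GFP-negative and to 1916 to 2410 CPM in GFP-positive libraries, and all 9 were detected in every group. The 14 myeloid markers were also detected in every group and summed to 152 to 1711 CPM in GFP-negative and 380 to 3916 CPM in GFP-positive libraries, higher in the GFP-positive cells of 6 of 6 recipients. Summed markers of basophils, mast cells and eosinophils (0.571 to 21.3 CPM in GFP-negative, 1.81 to 61.9 CPM in GFP-positive libraries), of erythroid cells (4.02 to 86.6 and 20.9 to 208 CPM) and of B cells (19.6 to 136 and 23.7 to 169 CPM) were higher there in 6 of 6 too, and those of NK cells in 5 of 6. A list of 13 genes of dissociation stress and recent stimulation (such as Fos and Egr1) summed to 448 to 879 CPM in GFP-negative libraries. It summed to 699 to 939 CPM in Het GFP-positive and 1019 to 1069 CPM in KO GFP-positive libraries, again higher in the GFP-positive cells of 6 of 6 recipients. Eomes itself read 1.95 to 9.19 CPM in the GFP-negative libraries, 89.8 to 123 CPM in Het GFP-positive and 31.6 to 46.6 CPM in KO GFP-positive. Which exons cre removes is not given in the sources used here, so the gene's total does not check the deletion. On the first principal component (42.4% of the variance), KO GFP-positive replicate 1 lay at -17.8, between the lowest and highest GFP-negative library (-64.6 and -17.03), whereas the other GFP-positive libraries lay at 29.6 to 85.4. The cytokine results in KO cells are therefore given with and without it. The TMM factors of the GFP-positive replicates 2 were 0.588 in Het and 0.663 in KO, against 0.970 to 1.23 in the other libraries. The 4 features above 5% of a library together took 16.3% to 58.3% of its counts, the most in Het GFP-positive replicate 2. In these bulk libraries, fewer cells that make a transcript and less transcript per cell cannot be told apart.

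These 4 promoters are shown because Ifng is the known T-box target among the genes and because Tnf, Lta and Ltb lie side by side within 10913 bases of chromosome 17. Ltb ends 3060 bases from Tnf and Tnf lies 1157 bases from Lta. The stretches lie before the transcription start, are read 5′ to 3′ on the gene's strand, and come from RefSeq (GRCm38.p6), whose table had an entry for 9 of the 10 genes. Capitals mark the T-box motif AGGTGT, the NFAT core GGAAA and the TATA box TATAAA on either strand. They are Ifng at chr10:118440796-118441045 (+), Tnf at chr17:35202008-35202257 (−), Lta at chr17:35205352-35205601 (−) and Ltb at chr17:35194257-35194438 (+, 182 bases).
Ifng: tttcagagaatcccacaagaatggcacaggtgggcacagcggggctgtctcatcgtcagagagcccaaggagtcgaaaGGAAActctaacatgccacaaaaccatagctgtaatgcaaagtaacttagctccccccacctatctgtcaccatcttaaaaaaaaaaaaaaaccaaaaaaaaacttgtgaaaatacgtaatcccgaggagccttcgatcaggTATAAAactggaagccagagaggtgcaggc
Tnf: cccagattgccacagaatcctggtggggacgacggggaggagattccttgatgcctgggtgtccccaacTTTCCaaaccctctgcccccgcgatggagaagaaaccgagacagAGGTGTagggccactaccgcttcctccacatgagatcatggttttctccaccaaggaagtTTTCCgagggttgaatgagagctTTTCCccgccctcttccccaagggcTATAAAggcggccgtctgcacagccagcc
Lta: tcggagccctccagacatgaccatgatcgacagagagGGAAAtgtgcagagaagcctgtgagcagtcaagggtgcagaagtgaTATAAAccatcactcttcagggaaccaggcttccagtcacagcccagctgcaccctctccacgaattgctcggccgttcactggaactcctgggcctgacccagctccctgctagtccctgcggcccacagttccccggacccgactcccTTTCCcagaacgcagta
Ltb: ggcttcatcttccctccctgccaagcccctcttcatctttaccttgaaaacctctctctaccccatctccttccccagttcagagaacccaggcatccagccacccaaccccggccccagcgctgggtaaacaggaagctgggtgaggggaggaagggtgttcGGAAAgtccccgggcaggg
Among the 4, AGGTGT occurred only in the Tnf stretch, 137 bases before the start, and over the 9 genes it was found in Tnf once and in Il21 at 2 places. It is present in 11.8% of 32851 promoter windows of 250 bases. GGAAA was found once in Ifng and Ltb, at 2 places in Lta and at 3 in Tnf, against 55.6% of all windows with at least one. TATAAA lay 30 bases before the start of Ifng and 29 before that of Tnf, the usual place of a TATA box, and 167 before that of Lta, which is not. It is found in 12.4% of windows. The AP-1 motif TGANTCA (6.75% of windows) was in none of the 9. These matches describe letters in short windows and were not tested as binding sites.

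The genes differed widely in level. Per kilobase of exon, Ltb and Ifng stood first and second in each of the 4 groups, at 142 ± 36.1 and 134 ± 16.3 CPM per kb in Het GFP-negative cells (mean ± SD, n = 3), where their libraries overlapped. Tnf (32.4 ± 2.37) and Tgfb1 (22.4 ± 7.42) followed and also overlapped each other in that group. Lta, Csf2, Il21, Il2 and Il10 lay between 5.96 and 0.712 CPM per kb there, each overlapping the next in order. In Het GFP-positive cells Il10 moved up to place 5 of 10, at 12.8 ± 11.01 CPM per kb, with a range that overlapped that of Tnf above it and Il21 below it.

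**Figure D1:**
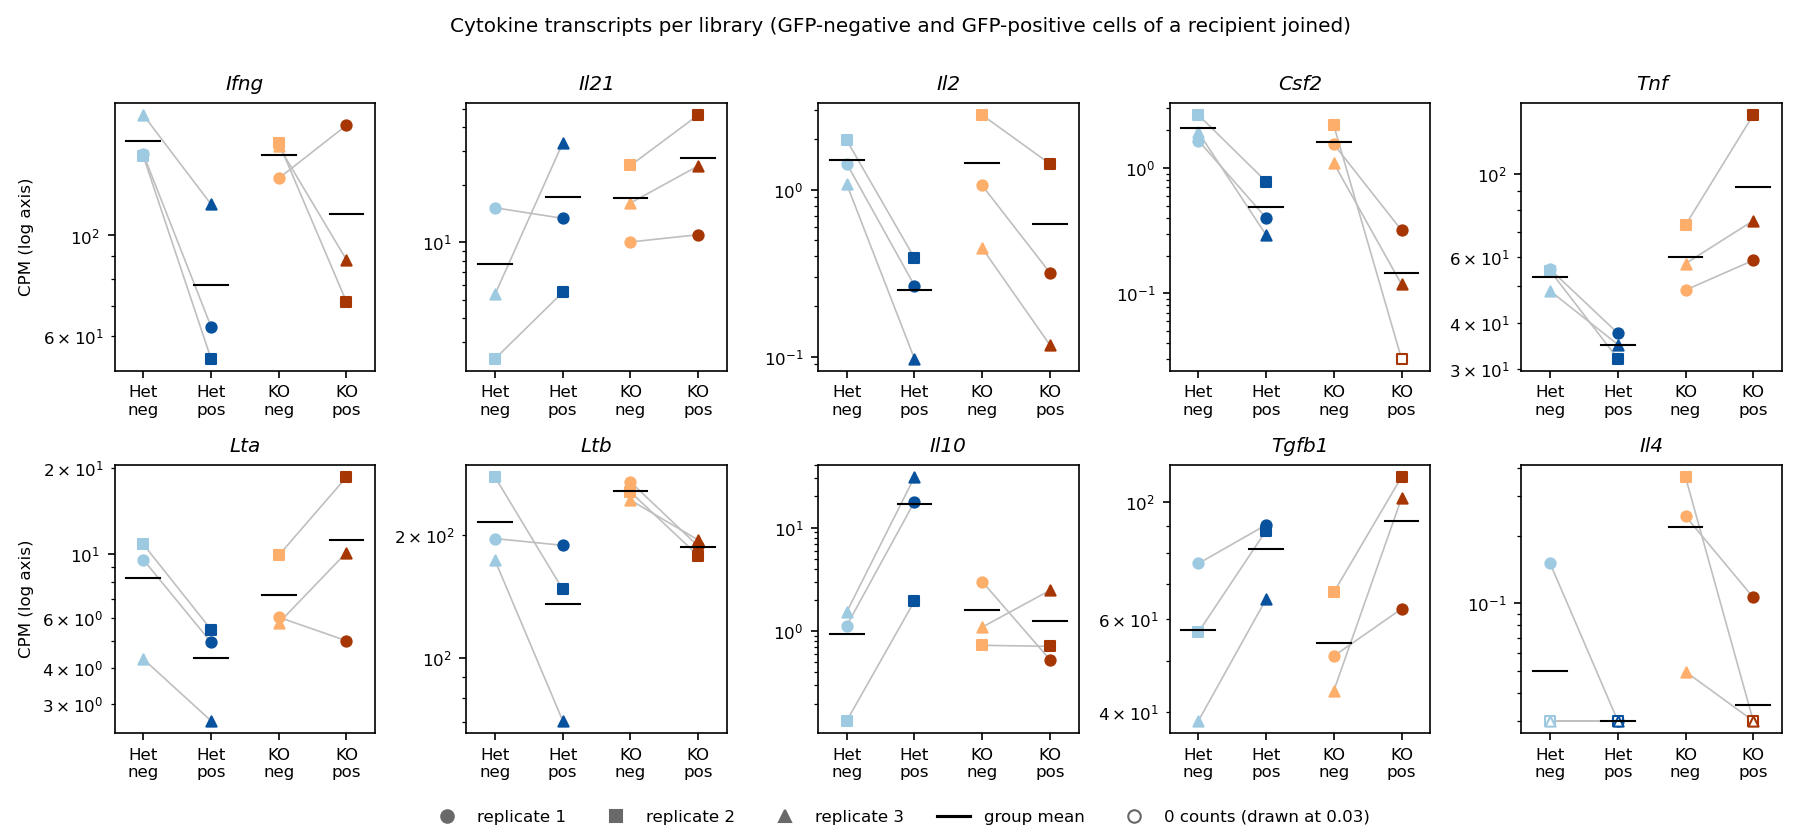
TMM-scaled CPM of the 10 genes (log axes, one panel per gene) in each of the 12 libraries by group; grey lines join the GFP-negative and GFP-positive cells of 1 recipient, black bars are group means, and open symbols are libraries with 0 counts, drawn at 0.03. Il10 reads 17.7 and 30.8 CPM in 2 Het GFP-positive libraries and at most 3.02 CPM in the other 10, and the Tnf lines slope down in Het and up in KO recipients.

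Results come from 2 fits. The main one compares group means over all 12 libraries (edgeR's quasi-likelihood test, false discovery rate (FDR) from Benjamini-Hochberg adjustment over 13238 tested genes, call under 0.05). The other adds the recipient as a block, which uses the pairing of sorts and calls far more genes. Of the 10 genes 9 passed the filter on low counts, and Il4 did not. For Het GFP-positive minus Het GFP-negative cells, the group-mean fit called 3.45% of all tested genes and 2 of the 9 cytokine genes: Il10 rose and Csf2 fell. DESeq2 called those 2 and Ifng (lower). The group-mean calls rested on all libraries: none of the 9 passed once any 1 of the 3 Het GFP-negative libraries was left out, or Het GFP-positive replicate 1. Il10 alone passed without Het GFP-positive replicate 2, and Ifng alone without Het GFP-positive replicate 3. Over all genes the calls fell too, from 457 to 270, 88 and 360 without Het GFP-negative replicates 1, 2 and 3. Without Het GFP-positive replicates 1, 2 and 3 they were 254, 228 and 324, so the loss was not particular to the cytokines. The recipient block called 22.2% of all genes and 8 of the 9: Il10 and Tgfb1 rose, and Ifng, Il2, Csf2, Tnf, Lta and Ltb fell. The median log2 fold change over the 9 genes was -0.67 in the group-mean fit, against -0.02 over all tested genes. For KO GFP-positive minus KO GFP-negative cells the group-mean fit called 0.128% of genes and none of the 9, of which 4 had an unadjusted p under 0.05, while DESeq2 called Csf2 alone. The recipient block called 17.7% of genes and 3 of the 9, with Tnf and Tgfb1 higher and Csf2 lower. Without KO GFP-positive replicate 1 the group-mean fit called those 3 genes too, at adjusted p = 0.0254 for Csf2, 0.0451 for Tnf and 0.0399 for Tgfb1. Over all genes its calls then went from 17 of 13238 to 1760 of 13980, so the gain was not particular to the cytokines.

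Ifng encodes interferon-γ, which activates macrophages. It lies at chr10:118441047-118445892 on the plus strand. The 3 Het GFP-negative libraries read 151, 150 and 184 CPM and the 3 Het GFP-positive ones 62.9, 53.5 and 117 CPM, in order of replicate number. The KO GFP-negative libraries read 134, 160 and 157 CPM, and the KO GFP-positive ones 175, 71.4 and 88.4 CPM. All Het GFP-positive libraries lay below all Het GFP-negative ones, whereas the KO groups overlapped because replicate 1 was the highest of its genotype. The log2 fold change in Het cells was -1.04 ± 0.33 (SE, adjusted p = 0.106, edgeR) in the group-mean fit and -1.12 ± 0.26 (adjusted p = 0.0113) with the recipient block. It also passed without the block in DESeq2 (adjusted p = 0.0304) and in edgeR without the filter on low counts (adjusted p = 0.0286), in a range of 0.00677 to 0.262 over 19 alternatives. Within recipients the GFP-positive cells held 0.417, 0.357 and 0.636 times the Ifng of the GFP-negative cells in Het, and 1.31, 0.446 and 0.562 times in KO. In KO cells the change was -0.41 ± 0.33 (adjusted p = 0.494), -0.51 with the block (adjusted p = 0.186), and -0.96 (adjusted p = 0.00353) with the block once recipient 1 was left out. Ifng thus stayed among the most abundant of the 10 transcripts in GFP-positive cells while 5 of 6 recipients had less of it there. The sum of CD4 T cell markers moved the same way, lower in 6 of 6 recipients, and its part in the result was not tested.

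Il21 encodes interleukin-21, a cytokine that helps B cells and CD8 T cells. It lies at chr3:37222759-37232618 on the minus strand. Its exons overlap those of Gm12534 on the other strand, which never exceeded 15 counts. Il21 read 15.1, 2.45 and 5.33 CPM in Het GFP-negative and 13.3, 5.46 and 33.1 CPM in Het GFP-positive libraries. In KO it read 10.03, 25.2 and 16.04 CPM in GFP-negative and 10.9, 46.4 and 25.1 CPM in GFP-positive cells. All 4 groups overlapped, and libraries of the same group lay far apart. GFP-positive cells had more Il21 than GFP-negative cells in 5 of 6 recipients, with ratios from 0.880 to 6.20 in Het and from 1.09 to 1.84 in KO. In KO cells the log2 difference was 0.60 ± 0.72 (adjusted p = 0.651), and 1.03 without GFP-positive replicate 1 (adjusted p = 0.342). The difference missed the threshold in Het cells in both fits (1.25 ± 0.72, adjusted p = 0.304; 1.22 ± 0.45 with the block, adjusted p = 0.0714). Averaged over both genotypes it passed with the block (0.89 ± 0.30, adjusted p = 0.0323) and not without it (adjusted p = 0.203).

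Il2 encodes the T cell growth factor interleukin-2 and lies at chr3:37120523-37125959 on the minus strand. It was thinly read. Counts were 19, 29 and 19 in Het GFP-negative against 2, 1 and 1 in Het GFP-positive libraries, and 13, 46 and 9 in KO GFP-negative against 3, 2 and 1 in KO GFP-positive libraries. As CPM the Het groups averaged 1.49 ± 0.451 and 0.251 ± 0.147 and did not overlap, while the KO groups averaged 1.43 ± 1.22 and 0.621 ± 0.705 and did. The ratio within recipients was below 1 in 6 of 6, from 0.0903 to 0.510. Single recipients carry wide counting intervals, for example 0.0210 to 0.772 in Het recipient 1 and 0.0550 to 1.09 in KO recipient 1 (exact binomial, 95%). Il2 fell in Het cells only with the recipient block (-2.67 ± 0.58, adjusted p = 0.00893; -2.78 ± 0.92 and adjusted p = 0.116 without). In KO cells it did not pass in either fit (adjusted p = 0.281 and 0.0885), nor in either without recipient 1's GFP-positive library or recipient 1 (adjusted p = 0.294 and 0.262). Averaged over genotypes it fell in both (-2.38 ± 0.64, adjusted p = 0.0294; -2.08 ± 0.41 with the block, adjusted p = 0.0026).

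Csf2 encodes GM-CSF, which acts on myeloid cells, and lies at chr11:54247271-54249667 on the minus strand. Counts were 22, 39 and 34 in Het GFP-negative, 3, 2 and 3 in Het GFP-positive, 19, 36 and 22 in KO GFP-negative and 3, 0 and 1 in KO GFP-positive libraries. As CPM these groups averaged 2.08 ± 0.516, 0.491 ± 0.257, 1.61 ± 0.551 and 0.146 ± 0.161, and in both genotypes the sorts did not overlap. Csf2 fell in Het GFP-positive cells in both fits (-2.28 ± 0.56, adjusted p = 0.0466; -2.21 ± 0.51 with the block, adjusted p = 0.0114). In KO cells it passed with the block (-2.76 ± 0.62, adjusted p = 0.0152) and not with group means (-2.93 ± 0.64, adjusted p = 0.124). The 5 recipients with a count in both sorts had ratios from 0.108 to 0.294. In KO recipient 2, 0 of 2116894 counts allows up to 2.14 CPM (3 counts after TMM scaling). That is near the 2.19 CPM of its GFP-negative partner, so that library says little. Averaged over genotypes, Csf2 fell in both fits and in all 27 alternative settings (log2 fold change -3.08 to -2.15, adjusted p from 0.000226 to 0.0203). Csf2 and Il2 held 8 and 4 counts in all Het GFP-positive libraries together and 4 and 6 in all KO GFP-positive ones, too few to compare the genotypes.

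Tnf encodes tumour necrosis factor and lies at chr17:35199381-35202007 on the minus strand. It read 55.6, 55.1 and 48.6 CPM in Het GFP-negative and 37.5, 32.003 and 34.9 CPM in Het GFP-positive libraries. The KO GFP-negative libraries read 48.9, 73.1 and 57.6 CPM and the KO GFP-positive ones 58.8, 144 and 75.1 CPM. The Het GFP-positive libraries were lower than all libraries of the other 3 groups, and the KO sorts overlapped. Within recipients the ratio was 0.674, 0.581 and 0.718 in Het and 1.20, 1.97 and 1.30 in KO, with exact binomial intervals that lay on 1 side of 1 in each of the 6 recipients. With the recipient block Tnf fell in Het cells (-0.60 ± 0.16, adjusted p = 0.0219) and rose in KO cells (0.53 ± 0.16, adjusted p = 0.0387), and with group means it passed in neither (adjusted p = 0.212 and 0.284). The test of the difference between these effects gave -1.20 ± 0.39 (unadjusted p = 0.00906) with group means and an adjusted p of 1.00. With the block it gave -1.13 ± 0.22 and adjusted p = 0.133. The myeloid sum and the sum of stress and stimulation genes were higher in GFP-positive cells of 6 of 6 recipients. Their parts in the Tnf result were not tested.

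Lta, the gene of lymphotoxin-α at chr17:35203165-35205351 (minus strand), was read at a lower level. It read 9.57, 10.8 and 4.31 CPM in Het GFP-negative and 4.93, 5.46 and 2.63 CPM in Het GFP-positive libraries, and 6.03, 9.91 and 5.76 CPM in KO GFP-negative and 4.99, 18.6 and 10.1 CPM in KO GFP-positive libraries. Both pairs of groups overlapped. Each Het recipient had less Lta in its GFP-positive cells (ratios 0.516, 0.505 and 0.609), and the KO recipients gave 0.828, 1.87 and 1.76. It fell in Het cells with the block only (-0.88 ± 0.28, adjusted p = 0.0456; -0.97 ± 0.50 and adjusted p = 0.256 without). In KO cells it was 0.52 ± 0.49 with group means (adjusted p = 0.555) and 0.49 ± 0.27 with the block (adjusted p = 0.218). Without KO recipient 1, Lta rose with the block (0.88, adjusted p = 0.03). The difference of the effects was -1.37 ± 0.39 with the block (adjusted p = 0.455).

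Ltb encodes lymphotoxin-β, which anchors lymphotoxin-α at the cell surface, and lies at chr17:35194439-35196320 on the plus strand. It read 196, 278 and 174 CPM in Het GFP-negative and 189, 148 and 70.3 CPM in Het GFP-positive libraries. It read 270.5, 256 and 244 CPM in KO GFP-negative and 188, 178 and 195 CPM in KO GFP-positive libraries. The Het sorts overlapped and the KO sorts did not, and 6 of 6 recipients had less Ltb in GFP-positive cells, with ratios from 0.405 to 0.963. In Het cells Ltb fell with the block (-0.76 ± 0.20, adjusted p = 0.0227) and not with group means (adjusted p = 0.192). In KO cells it was -0.45 ± 0.20 with the block (adjusted p = 0.13), and -0.39 without recipient 1 (adjusted p = 0.252). Unlike Tnf and Lta, Ltb was lower in GFP-positive cells of each KO recipient, and its difference of effects was -0.30 ± 0.28 with the block (adjusted p = 1.00).

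**Figure D2:**
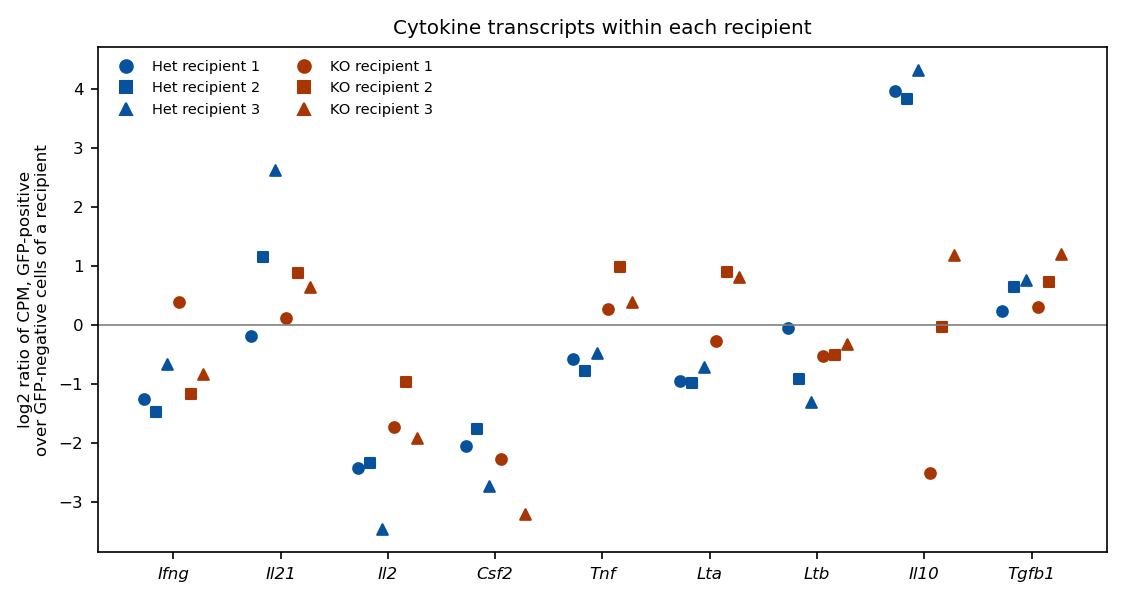
Log2 ratio of CPM in GFP-positive over GFP-negative cells (vertical axis) for 9 genes in the 3 Het (blue) and 3 KO (brown) recipients; Csf2 in KO recipient 2 has no ratio because its GFP-positive library held 0 counts. Tnf lies below 0 in each Het and above 0 in each KO recipient, Il10 lies between 3.84 and 4.33 in the Het recipients and between -2.51 and 1.18 in KO, and Tgfb1 lies above 0 in all 6.

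Il10 encodes interleukin-10, which limits inflammation, and lies at chr1:131019845-131024974 on the plus strand. Of the 9 tested genes it had the largest log2 difference between the Het sorts. The Het GFP-negative libraries read 1.13, 0.136 and 1.53 CPM and the Het GFP-positive ones 17.7, 1.95 and 30.8 CPM. The KO GFP-negative libraries read 3.02, 0.730 and 1.09 CPM and the KO GFP-positive ones 0.531, 0.714 and 2.47 CPM. In Het cells the sorts did not overlap, but the lowest GFP-positive library, replicate 2 with 5 counts, lay within the range of the KO groups. The log2 fold change in Het cells was 4.18 ± 0.95 (adjusted p = 0.0347), and 4.12 ± 0.53 with the block (adjusted p = 0.000543). Over 19 alternative settings it ranged from 3.47 to 4.79, with adjusted p from 0.00022 to 0.14, and passed in 14. The 3 Het recipients gave similar ratios despite unlike levels: 15.7 (exact binomial 95% interval 9.18 to 28.8), 14.3 (2.35 to 151, from 5 against 2 counts) and 20.1 (13.5 to 30.9).

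In KO recipients Il10 went in no single direction. The ratios were 0.176 (0.0540 to 0.449), 0.978 (0.0229 to 6.61, from 1 against 12 counts) and 2.26 (1.18 to 4.32). The log2 fold change was -0.20 ± 1.00 (adjusted p = 0.931), and it was 0.33 without KO GFP-positive replicate 1. The difference between the Het and KO effects was 4.38 ± 1.36 with group means (unadjusted p = 0.00697, adjusted p = 1.00) and 4.48 ± 0.79 with the block (adjusted p = 0.0804). It passed with the block once KO recipient 3 was left out (6.26, adjusted p = 0.00952), and without each of the other recipients in turn the adjusted p was 0.0583 to 0.348. Myeloid cells of the host can also make Il10, and the myeloid sum moved with the sort. In Het GFP-positive replicates 1, 2 and 3 it was 570, 2406 and 3916 CPM, beside 17.7, 1.95 and 30.8 CPM of Il10. Its part in the result was not tested.

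Tgfb1 encodes transforming growth factor-β1, which is secreted in a latent form, and lies at chr7:25687002-25705077 on the plus strand. It read 76.4, 56.6 and 38.5 CPM in Het GFP-negative and 90.4, 88.2 and 65.4 CPM in Het GFP-positive libraries. It read 51.03, 67.4 and 43.9 CPM in KO GFP-negative and 62.7, 111 and 102 CPM in KO GFP-positive libraries. The sorts overlapped in both genotypes, but 6 of 6 recipients had more in GFP-positive cells, from 1.18 to 2.31 times. With the recipient block it rose in Het (0.55 ± 0.18, adjusted p = 0.0463) and in KO cells (0.75 ± 0.18, adjusted p = 0.0194), and with group means in neither (adjusted p = 0.285 and 0.244). The difference of the effects was -0.20 ± 0.25 with the block (adjusted p = 1.00). Many cell types transcribe Tgfb1, myeloid cells included. The myeloid marker sum was higher in the same 6 recipients' GFP-positive cells, and its part in this result was not tested.

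Il4, at chr11:53602982-53618669 on the minus strand, was too low to read. Counts were 2, 0 and 0 in Het GFP-negative, 0 in all 3 Het GFP-positive, 3, 6 and 1 in KO GFP-negative and 1, 0 and 0 in KO GFP-positive libraries. In the Het GFP-positive libraries, 0 counts allow up to 0.4001, 1.17 and 0.292 CPM (3 counts, counting error only), above the 0.220 ± 0.159 CPM of KO GFP-negative cells, so a difference was not detectable at this depth.

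Averaged over both genotypes, the group-mean fit called 18.1% of genes and 4 of the 9: Ifng, Il2 and Csf2 fell and Tgfb1 rose. Ifng (adjusted p = 0.0490) and Tgfb1 (adjusted p = 0.0461) lay close to the threshold. They passed in 15 and 17 of 27 alternative settings, against 21 for Il2 and 27 for Csf2. The recipient block called 41.1% of genes and 7 of the 9, adding Ltb (lower) and Il21 and Il10 (higher). The block gave Il10 a log2 fold change of 4.12 in Het and -0.36 in KO cells, so its averaged rise came from the Het cells. Tnf and Lta, whose effects also had opposite signs in the genotypes, gave -0.00 and -0.23 with group means. The sign of the Tnf average depended on the scaling, for example 0.07 with an offset for GC and length.

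The comparison of GFP-positive cells, Het minus KO, sets donors without cre, which keep a working flox allele, beside donors with Lck-cre. Lck-cre itself and the loss of that allele come together in this design, so their effects cannot be told apart. The group-mean fit called 0.106% of genes and none of the 9, of which 3 had an unadjusted p under 0.05. Tnf was 34.8 ± 2.74 CPM in Het and 92.7 ± 45.4 CPM in KO GFP-positive cells, a log2 difference of -1.37 ± 0.28 (unadjusted p = 0.000362, adjusted p = 0.145), and the groups did not overlap. Much of the KO mean came from replicate 2, whose 144 CPM rest on 202 counts and a TMM factor of 0.663. Without it the difference was -0.96 (adjusted p = 0.158). Without KO replicate 1 it was -1.66 (adjusted p = 0.0506). Il10 was 16.8 ± 14.4 CPM in Het and 1.24 ± 1.07 CPM in KO, a log2 difference of 3.65 ± 1.00 (adjusted p = 0.324), with overlap through Het replicate 2. Lta was -1.31 ± 0.52 (adjusted p = 0.697). DESeq2 called Tnf (adjusted p = 0.00183) and Il10 (adjusted p = 0.0235), as did edgeR without the filter on low counts. Over 14 alternatives the adjusted p ran from 0.00183 to 0.482 for Tnf and from 0.0235 to 0.606 for Il10. The authors' deposited table for this comparison, coded KO minus Het, holds 77 genes and lists both. Il10 is at -1.41 (adjusted p = 0.0206) and Tnf at 1.13 (adjusted p = 0.0249). Ifng differed by -0.53 ± 0.33 (adjusted p = 0.908) and by -0.08 without KO replicate 1. An exact permutation test of 3 against 3 libraries cannot go below 0.1, which Tnf reached here.

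Between the GFP-negative groups the group-mean fit of edgeR called no gene (0% of 13238), against 45 by DESeq2, 26 by edgeR without the filter and 4 by limma-voom over all genes. No cytokine gene had an unadjusted p under 0.05 with edgeR or a call with DESeq2. The 9 log2 differences, Het minus KO, ran from -1.17 for Il21 to 0.37 for Csf2. For the difference of the GFP effects between genotypes, 0.00755% of genes were called with group means and 0.0755% with the block, and none of the 9 in either fit. Unadjusted p was under 0.05 for 2 of the 9 with group means and for 3 with the block (Tnf, Lta and Il10), and DESeq2 called none. The authors' deposited table for Het cells lists 4 of the genes, with Ifng at -0.98 (adjusted p = 0.00952), Csf2 at -1.52 (adjusted p = 0.0256), Tnf at -0.59 (adjusted p = 0.0283) and Il10 at 1.59 (adjusted p = 0.0294). Their table for KO cells lists Ltb alone, at -0.45 (adjusted p = 0.0466). Whether the authors' log2 fold changes were shrunken toward 0 is not given in the sources used here. Their sizes are therefore not comparable with those of the fits.

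**Figure D3:**
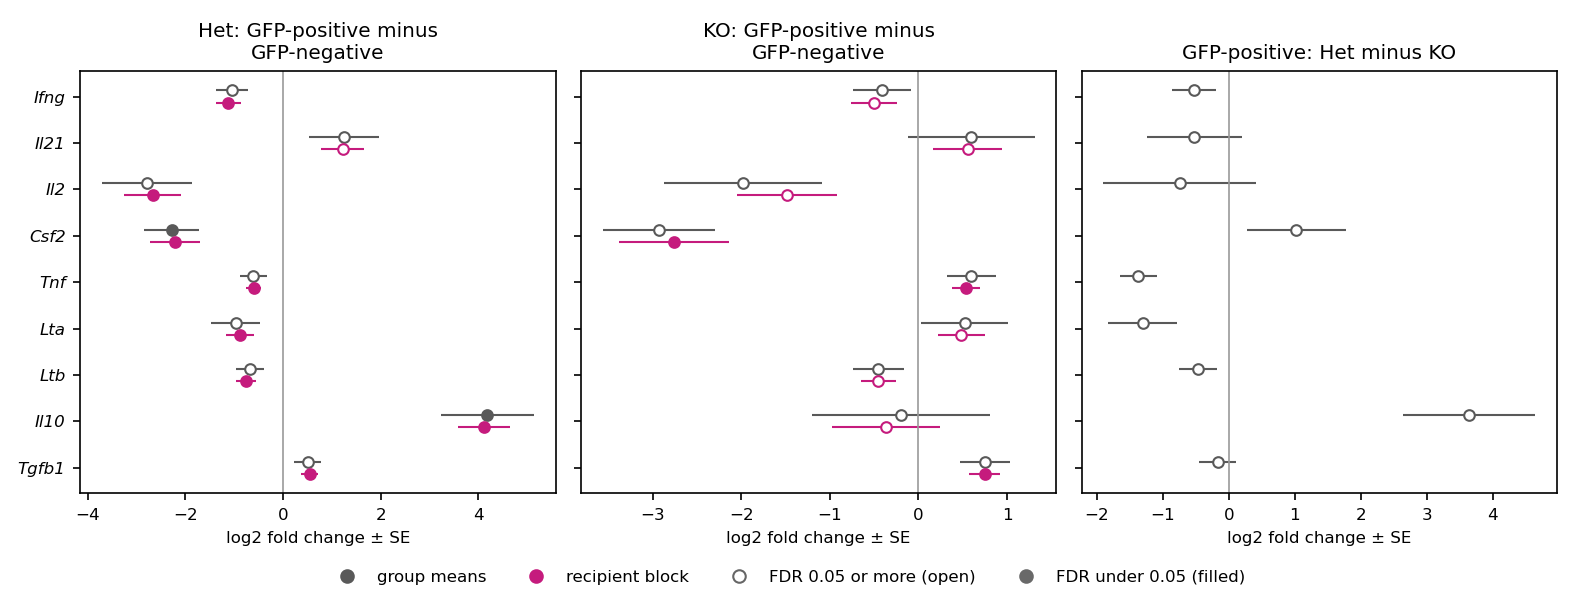
Log2 fold change ± SE (horizontal axes, own scale per panel) of 9 genes for the GFP effect in Het cells, the GFP effect in KO cells and Het minus KO in GFP-positive cells; grey is the group-mean fit, magenta the recipient block, and filled symbols have FDR under 0.05. The block has smaller errors than the group means, and for Het minus KO the group-mean fit alone is drawn.

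The receptors through which these cytokines act were read in the same libraries. All 18 receptor genes of the list were tested. In Het cells the group-mean fit called 2 higher (Il10ra and Il4ra) and 2 lower (Il2ra and Il2rg), against 3.45% of all tested genes. The block called 11 higher and 4 lower, against 22.2% of all tested genes. In KO cells the group-mean fit called none (0.128% of all tested genes), and the block called 8 higher and 5 lower (17.7%). The median log2 fold change of the list was 0.56 in Het cells with group means, against -0.02 over all genes. Il10ra, the ligand-binding chain of the IL-10 receptor, read 46.0, 25.5 and 57.1 CPM in Het GFP-negative and 256, 175 and 215 CPM in Het GFP-positive libraries. It rose by 2.33 ± 0.29 on the log2 scale (adjusted p = 0.00219), and the sorts were far apart. Il2ra, which encodes CD25, the high-affinity chain of the IL-2 receptor, read 78.9, 71.2 and 72.9 CPM in Het GFP-negative and 21.2, 16.4 and 26.4 CPM in Het GFP-positive libraries (-1.78 ± 0.27, adjusted p = 0.00647). Il2rg, the chain shared by receptors for IL-2, IL-4 and IL-21, fell (-1.10 ± 0.27, adjusted p = 0.0450), and Il4ra rose (0.99 ± 0.17, adjusted p = 0.0102). In KO cells with the block Il10ra rose by 0.92 ± 0.20 (adjusted p = 0.0146) and Il2ra fell by 1.08 ± 0.23 (adjusted p = 0.0129).

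Ltbr, Csf2ra and Csf2rb, receptor chains typical of myeloid and stromal cells, had the largest receptor changes with the block in Het cells (2.85, 2.84 and 2.50). In KO cells they gave 3.31, 2.65 and 2.97, and Il13ra1, a chain of the IL-4 and IL-13 receptors, gave 2.65. Csf2rb read 3.77 to 25.7 CPM in Het GFP-negative and 19.6 to 89.6 CPM in Het GFP-positive libraries, so these sorts overlapped. Of the 14 myeloid markers, 11 were called higher in Het and 12 in KO GFP-positive cells with the block, with median log2 fold changes of 1.61 and 1.96. The block called 22.2% of all tested genes in Het and 17.7% in KO cells. The part of myeloid RNA in the receptor changes was not tested.

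**Figure D4:**
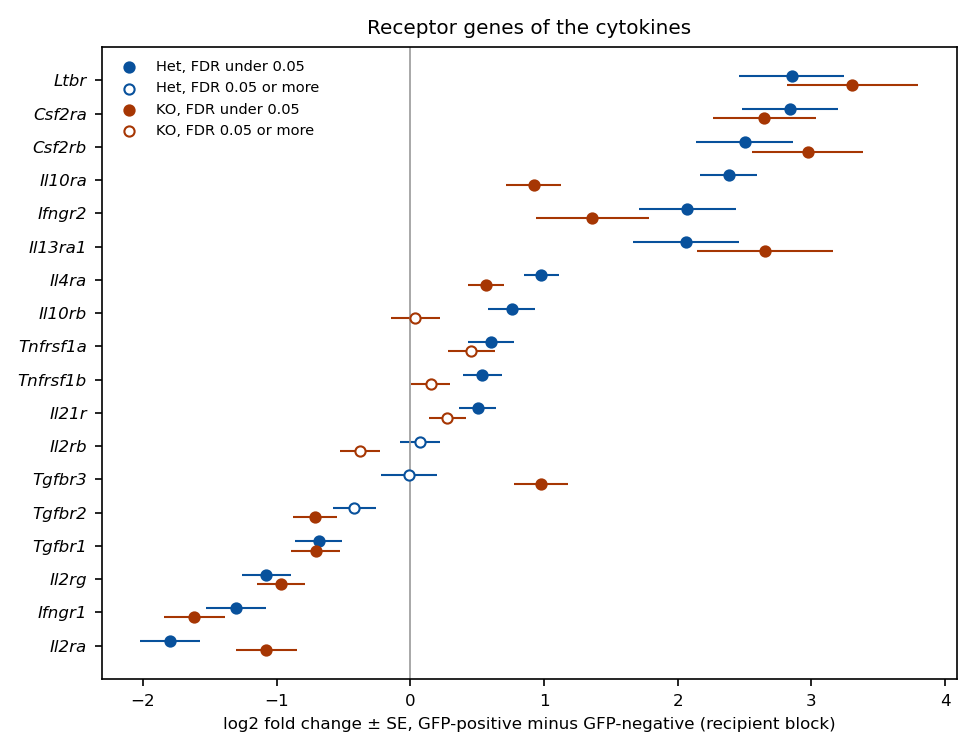
Log2 fold change ± SE (horizontal axis) of the 18 receptor genes, GFP-positive minus GFP-negative cells with the recipient block, in Het (blue) and KO (brown) cells; filled symbols have FDR under 0.05. Ltbr, Csf2ra, Csf2rb and Il13ra1 lie at 2.06 or above in both genotypes, and Il2ra, Ifngr1, Il2rg and Tgfbr1 lie below 0 in both.

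Of 29 tested transcription regulators of cytokine genes, the group-mean fit called Eomes (4.46 ± 0.48, adjusted p = 0.00116) and Ikzf2 (2.65 ± 0.38, adjusted p = 0.00513) higher and Ahr (-2.10 ± 0.31, adjusted p = 0.00647) lower in Het GFP-positive cells. Ikzf2, which encodes Helios, read 17.0 to 27.5 CPM in Het GFP-negative, 96.2 to 203 CPM in Het GFP-positive, 21.5 to 44.3 CPM in KO GFP-negative and 22.1 to 46.7 CPM in KO GFP-positive libraries. Its GFP effect differed between genotypes with the block (2.32 ± 0.34, adjusted p = 0.0365), as the one regulator of the list for which this passed. Ahr, which encodes the aryl hydrocarbon receptor, was lower in GFP-positive cells of both genotypes (-2.37 ± 0.34 in KO, adjusted p = 0.0187). With the block 9 regulators were higher and 5 lower in Het cells, and 5 and 4 in KO cells. The block called 22.2% and 17.7% of all tested genes there, and the group-mean fit 3.45% in Het cells. Tbx21, which encodes the related T-box factor T-bet, read 64.4 to 149 CPM in the Het libraries of both sorts and was called in neither fit. All KO libraries lay above these, at 153 to 231 CPM in GFP-negative and 171 to 248 CPM in GFP-positive cells. Between the genotypes the group-mean fit called none of the 29 regulators in either sort.

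Among 11 regulators of cytokine mRNA decay, the group-mean fit called none in Het cells, and the block called 3 higher, Zfp36l2 (0.88), Zfp36 (0.68) and Nfkbiz (0.66), a share near the 22.2% of all genes it called. In KO cells the block called Zfp36 alone (0.58), against 17.7% of all tested genes. Zfp36 and Zfp36l2 encode proteins that bind AU-rich elements, as found in Tnf and Ifng transcripts. Of 13 tested genes that process or activate the cytokines, Itgb8 rose in Het cells in both fits (2.56 ± 0.63 with group means, adjusted p = 0.0453; 2.49 ± 0.51 with the block, adjusted p = 0.00677). Itgb8 encodes the integrin β8 chain that releases active TGF-β1 from its latent complex, and it read 0.477 to 0.980 CPM in Het GFP-negative and 3.12 to 6.72 CPM in Het GFP-positive libraries.

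Of 30 other cytokine genes, 18 were tested. In Het cells the group-mean fit called Penk higher and Il22, Tgfb3, Cd40lg and Tnfsf14 lower, and the block called 2 higher and 6 lower. Over all tested genes the shares called were 3.45% and 22.2%. Cd40lg, which encodes CD40 ligand, read 55.4, 59.4 and 40.2 CPM in Het GFP-negative and 13.1, 18.0 and 18.8 CPM in Het GFP-positive libraries (-1.64 ± 0.25, adjusted p = 0.00647). Tgfb3 read 7.46 to 12.9 CPM and 1.95 to 2.43 CPM in the same groups (-2.11 ± 0.34, adjusted p = 0.00798). Penk, which encodes the enkephalin precursor, read 1.25 to 1.36 CPM and 5.87 to 18.3 CPM (3.17 ± 0.66, adjusted p = 0.0244). In KO GFP-negative and GFP-positive libraries Cd40lg read 30.9 to 54.2 and 23.8 to 28.7 CPM. Tgfb3 read 6.63 to 10.4 and 1.43 to 2.98 CPM there, and Penk 1.74 to 4.40 and 1.49 to 12.1 CPM. The group-mean fit called none of the 18 in KO cells. Il22 was read at 1.23 to 2.95 CPM in Het GFP-negative cells, by 1 count in all Het GFP-positive libraries and by 0 counts in all KO GFP-positive libraries. Of the 21 tested genes that flank the 10 on their chromosomes, the group-mean fit called Il22 lower and Irf1 higher in Het cells. That fit called 3.45% of all tested genes.

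Over the 12 libraries, the genes whose log2 CPM followed that of Ifng most closely were Thoc1 (Pearson r = 0.969), Nemf (0.968), Orc3 (0.960) and Eif4e (0.958). Those closest to Il10 were Neb (0.935), Pex14 (0.878), Tigit (0.875) and Zfp36l2 (0.873). These are descriptions over 9768 genes, in libraries that share depth and sort.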

How the data were processed

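RNA of 12 libraries of sorted mouse CD4+ T cells was sequenced after ribosomal RNA depletion with a stranded total RNA kit, per the labels' protocols. The submitters' processing notes name bcl2fastq 1.8.4, TopHat2 2.0.13, featureCounts 1.5.0-p1, DESeq2 1.6.1 and mm10, without roles, and the strand setting of the counting is not given in the sources used here. The authors deposited unnormalized whole-number counts per gene, as a matrix and per library, with 0 cells differing between them. Exon coordinates and lengths are those of the deposited count files. The authors also deposited tables of significant genes, per the file headers with log2 fold changes and their errors, a test statistic (here a score) and raw and adjusted p-values. These were used for description only.

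From the counts, libraries were scaled by TMM. The filter filterByExpr, set to a count of 10 and a total of 15, kept 13238 of 43626 genes. Groups were compared with the quasi-likelihood test of edgeR 4.0.16 in R 4.3.3, two-sided, with 1 mean per group over all 12 libraries and Benjamini-Hochberg adjustment over all tested genes, called under FDR 0.05. Standard errors were derived from the log2 fold change and its F statistic. Per the design text, GFP-positive and GFP-negative libraries with one number come from one recipient, so the numbers pair the sorts. Deviations of paired libraries from their group means correlated with r 0.547, 0.241 and 0.617 in Het and 0.507, 0.506 and 0.263 in KO. The recipient block was fitted as an alternative, and could not be fitted between genotypes. Further alternatives used limma 3.58.1 and DESeq2 1.42.0. Fits were tested on simulated data.

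The 10 genes and the lists were chosen with earlier results of these data known. Named beyond the 10 genes are, per list and comparison, up to the 3 called genes with the largest change, and the 4 genes most correlated with Ifng and with Il10; Tbx21, Il4ra, Il2rg, Zfp36, Nfkbiz, Cd40lg, Tnfsf14 and Ifngr1 fall outside this in some comparison and were named after their values were seen. Separate cultures or donor pools behind the 3 recipients of a genotype are not described in the labels. A p-value therefore speaks for these recipients only. With group means it treats the sorts of a recipient as independent and rests on the spread between libraries of a group. With the block it rests on how the GFP difference varies between recipients of a genotype. Reads carry no molecular identifiers, so intervals cover counting error only.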

Additional observations from a re-analysis of the deposited data

Results flagged for a closer look

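Tnf was the one gene of the 10 whose GFP-positive cells moved in opposite directions in every recipient of the genotypes: the ratio to GFP-negative cells was below 1 in 3 of 3 Het recipients and above 1 in 3 of 3 KO recipients. The difference of the log2 effects was -1.20 (group means, adjusted p = 1.00), and the direction of the flag came from the recipients and not from that test. With the recipient block the adjusted p was 0.133, and with the block plus a GC and length offset it was 0.0496. Over 27 alternatives the difference ran from -1.46 to -0.71. The lowest size came without both GFP-positive libraries numbered 2, the libraries with the fewest counts. The genes of dissociation stress and recent stimulation summed to 699 to 939 CPM in Het and 1019 to 1069 CPM in KO GFP-positive libraries. The part of that sum, or of the myeloid sum, in the Tnf result was not tested. No group has 4 or more libraries, so single libraries were not screened as outliers.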

How the results depend on the processing

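The number of cytokine genes called depended mainly on the recipient, as did the number over all genes. Het calls over all 13238 tested genes went from 457 to 2944 (fixed block), 3249 (limma-voom) and 3204 (GC and length offset plus block). KO calls over all genes went from 17 to 2349, 1431 and 2768 in the same settings. Those averaged over genotypes went from 2395 to 5438, 5596 and 5530. The growth was therefore not particular to the cytokines. For Het GFP-positive minus Het GFP-negative cells the count of 2 became 8 with the recipient as a fixed replicate block, 7 with limma-voom and the recipient as a random replicate block, 8 with the GC and length offset plus the block, 3 with DESeq2 and without the filter (adding Ifng), and 1 with that offset alone, with only the groups compared in the fit, or without both GFP-positive libraries numbered 2 (chosen after seeing the data). Leaving out 1 library gave 0 to 1, and the block without 1 recipient 2 to 5. For KO the count of 0 became 3 with the replicate block, 4 with the offset plus the block, 2 with limma-voom and 1 with DESeq2. Leaving out 1 library gave 0 to 3, where 3 came without KO GFP-positive replicate 1, and the block without 1 recipient 0 to 5. For Het minus KO in GFP-positive cells 0 became 2 with DESeq2 and without the filter, while the calls over all genes went from 14 to 93 and 72. For the difference of effects 0 became 1 with the offset plus the block, where the calls over all genes went from 1 to 28. The block without 1 recipient gave 0 to 1 cytokine genes. For the average over genotypes 4 became 7 with the replicate block, with limma-voom and with the offset plus the block, and 2 without the libraries numbered 2. Leaving out 1 library gave 1 to 5.

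No change of sign touched a called value. Il10 in KO cells was 0.20 with the offset and -1.46 to 0.59 with 1 library left out. Il21 between GFP-positive cells was 0.36 without the libraries numbered 2. Between GFP-negative cells, leaving out 1 library gave -0.0292 to 0.136 for Ifng, -0.40 to 0.98 for Il2, -0.10 to 0.47 for Lta, -1.36 to 0.0169 for Il10 and -0.20 to 0.27 for Tgfb1. In the difference of effects it gave -0.18 to 1.56 for Il21, -0.55 to 0.12 for Ltb and -0.47 to 0.00596 for Tgfb1. The Tnf average over genotypes was 0.0257 with DESeq2 size factors, 0.0294 with DESeq2, 0.0100 without features above 5% of a library, 0.0717 with the offset, 0.0378 with the offset and block, and -0.22 to 0.13 with 1 library left out. Of the other alternatives for single genes, 789 kept direction and side of the threshold, 55 gained a call and 42 lost one; the cause was not tested.

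Over all genes, the calls in Het cells were 457 with group means, of which 52.7% were higher, and 535 with the GC and length offset, of which 37.6% were higher. They were 2944 with the replicate block, 1196 with DESeq2 and 897 without the filter. Low counts limit Il2, Csf2 and Il4, and Il10 outside 2 Het GFP-positive libraries, so the Het ratios of Il10 rest on few GFP-negative counts.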

Other observations

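Ratios of transcripts within a library do not depend on how libraries are scaled. Per 100 counts of Ifng, Het GFP-positive libraries held 3.65 to 28.2 counts of Il10, against 0.0910 to 0.831 in Het GFP-negative libraries. KO libraries held 0.456 to 2.26 counts when GFP-negative and 0.304 to 2.80 when GFP-positive, so the Het GFP-positive range lay above the other 3. Its lower end, in replicate 2, rests on 5 counts of Il10 (95% interval 1.62 to 11.7) and 137 of Ifng, so that separation is not firm. Ifng itself was lower in Het GFP-positive cells, which also raises this ratio. Per 100 counts of Ifng, Tnf was at 33.6 to 202 counts in KO GFP-positive and at 26.4 to 59.9 in the other libraries. Lta per 100 counts of Tnf overlapped across the 4 groups, at 7.52 to 19.7.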
